A study of Homo sapiens with 4 samples.

Results

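The genes described here are 10 that turn a growth factor signal into transcription: the EGR zinc finger factors EGR1, EGR2, EGR3 and EGR4, the PEA3 group of ETS factors ETV1, ETV4 and ETV5, the founding ETS factors ETS1 and ETS2, and IER3, an immediate-early gene linked to cell survival. They were taken by name, and every non-control probe of the array annotated to one of them was used, which gave 14 of 34127 probes. EGR1, EGR2, EGR3, EGR4, ETV4, ETV5, ETS1 and ETS2 had 1 probe each, IER3 had 2 and ETV1 had 4. The 4 microarrays came from Hs746T, a gastric carcinoma cell line that carries an amplified MET gene with an exon-skipping mutation, so that MET, the receptor tyrosine kinase for hepatocyte growth factor, signals without added ligand. Cells received the vehicle DMSO or PHA665752, a small-molecule inhibitor of the MET kinase, and other cells were transfected by Lipofectamine with a scrambled siRNA (sc siRNA) or an siRNA against MET and harvested at 48 h. The dose and duration of PHA665752 for the arrays were not given in the sources used here. Each condition was 1 array of 1 culture, so no replicate error, test or p-value could be given, and every ratio below compares a pair of arrays of this single line.

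When a receptor kinase is engaged, the RAS-ERK cascade phosphorylates ELK-type ETS factors that sit with SRF on CArG boxes, and genes such as EGR1 are transcribed within minutes without new protein synthesis and shut off soon after. ETV1, ETV4 and ETV5 follow ERK activity more lastingly: active ERK inactivates their repressor CIC, and their proteins are degraded when the COP1 and DET1 ubiquitin ligase complex acts on them. They are known as mediators of invasion and growth in receptor-driven tumours. EGR proteins bind GC-rich sites and are held back by the co-repressors NAB1 and NAB2.

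Depth was comparable over the DMSO, PHA665752 and sc siRNA arrays, and fewer probes were well above background on the MET siRNA array. The lowest signal well above background was 17.4 on the MET siRNA array and 10.2 to 12.3 on the others. Between 61.1% (MET siRNA) and 68.2% (sc siRNA) of all probes were well above background by the scanner software's own flag, the 75th percentile of the processed signal lay between 831 and 990.1, and no probe was saturated. Spots marked as outliers, which were left out, made up 1.69% to 2.21% of spots on the DMSO, PHA665752 and sc siRNA arrays but 5.58% on the MET siRNA array. The probe of MET itself read 221451 under DMSO, 100492 under PHA665752, 190010 under sc siRNA and 77854 under MET siRNA, which gave log2 ratios of -1.33 for the knockdown and -0.93 for the inhibitor. Among the cell type markers listed, gastric MUC5AC had no matched probe. Gastric CLDN18 and mesenchymal VIM had no probe with a value on all arrays, so none of these was assessed. Of the epithelial markers 6 of 7 were well above background on all arrays, the exception being CDH1 at 10.4 to 33.0. So were 3 of the 6 gastric markers listed (TFF1, TFF2, MUC6) and 3 of the 4 mesenchymal ones (CDH2, FN1, ZEB1), while the gastric marker GKN1 was on none. CD3E of T cells was on none, whereas PTPRC and CD14 of leukocytes and both endothelial markers were on all 4; PECAM1 read 1846 with DMSO and 304 with PHA665752, and the part of such genes in the ratios below was not tested.

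Promoter sequence was matched by symbol in RefSeq's GRCh38.p14 windows, which run from 250 bases before to 50 bases after each transcript start, and 13 windows were found for 5 of the genes: 1 for EGR1, 3 for EGR2, 1 for EGR4, 2 for ETS2 and 6, in part overlapping, for ETV1. Both strands were searched for the CArG box that SRF binds, the EGR site GCGTGGGCG, the ETS site CCGGAA, the cyclic AMP response element TGACGTCA and the CIC sites TGAATGAA and TGAATGGA. The windows below are shown because they hold the matches in an EGR gene with the highest inhibitor ratio, in an EGR gene that also differed between the controls, and in a PEA3 gene; capitals mark the CArG boxes in EGR1 and EGR2, and the ETS site and then a CIC site in ETV1.
EGR1, chr5:138465229-138465528 on the plus strand: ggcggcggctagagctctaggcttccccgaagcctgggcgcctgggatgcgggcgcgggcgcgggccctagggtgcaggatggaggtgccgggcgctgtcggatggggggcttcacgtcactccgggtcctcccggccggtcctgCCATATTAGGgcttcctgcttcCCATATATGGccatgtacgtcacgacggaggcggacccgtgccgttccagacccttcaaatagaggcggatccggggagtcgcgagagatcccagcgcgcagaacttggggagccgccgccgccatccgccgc
EGR2, chr10:62816317-62816616 on the minus strand: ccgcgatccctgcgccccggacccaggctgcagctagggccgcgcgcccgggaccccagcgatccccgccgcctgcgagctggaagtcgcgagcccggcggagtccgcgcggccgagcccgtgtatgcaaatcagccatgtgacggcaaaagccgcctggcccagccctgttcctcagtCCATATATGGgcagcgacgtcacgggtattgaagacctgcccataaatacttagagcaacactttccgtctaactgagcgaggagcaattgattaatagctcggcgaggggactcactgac
ETV1, chr7:13991376-13991675 on the minus strand: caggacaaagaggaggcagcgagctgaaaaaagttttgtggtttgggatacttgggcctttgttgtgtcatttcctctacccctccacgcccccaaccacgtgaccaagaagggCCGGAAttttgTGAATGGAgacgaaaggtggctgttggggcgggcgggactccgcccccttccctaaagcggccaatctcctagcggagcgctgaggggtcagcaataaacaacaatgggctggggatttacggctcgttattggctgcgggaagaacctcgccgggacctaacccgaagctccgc
The CArG boxes of EGR1 begin at -105 and -83 relative to the transcript start and that of EGR2 at -71, in 1 of its 3 windows. A CArG box was present in 1.29% of all 35116 windows of this length. An ETS site was found in 3 of the 6 ETV1 windows, against 17.2% of all windows. The matches at -141 and -137 are the same bases in windows that overlap almost in full, so this count holds a site more than once. The CIC site TGAATGGA was found in 1 of the 6 windows, at -125, against 1.03%. No match was found for the EGR site, the cyclic AMP response element or TGAATGAA in the windows of these genes, and these are held by 0.795%, 1.85% and 1.65% of all windows.

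**Figure D1:**
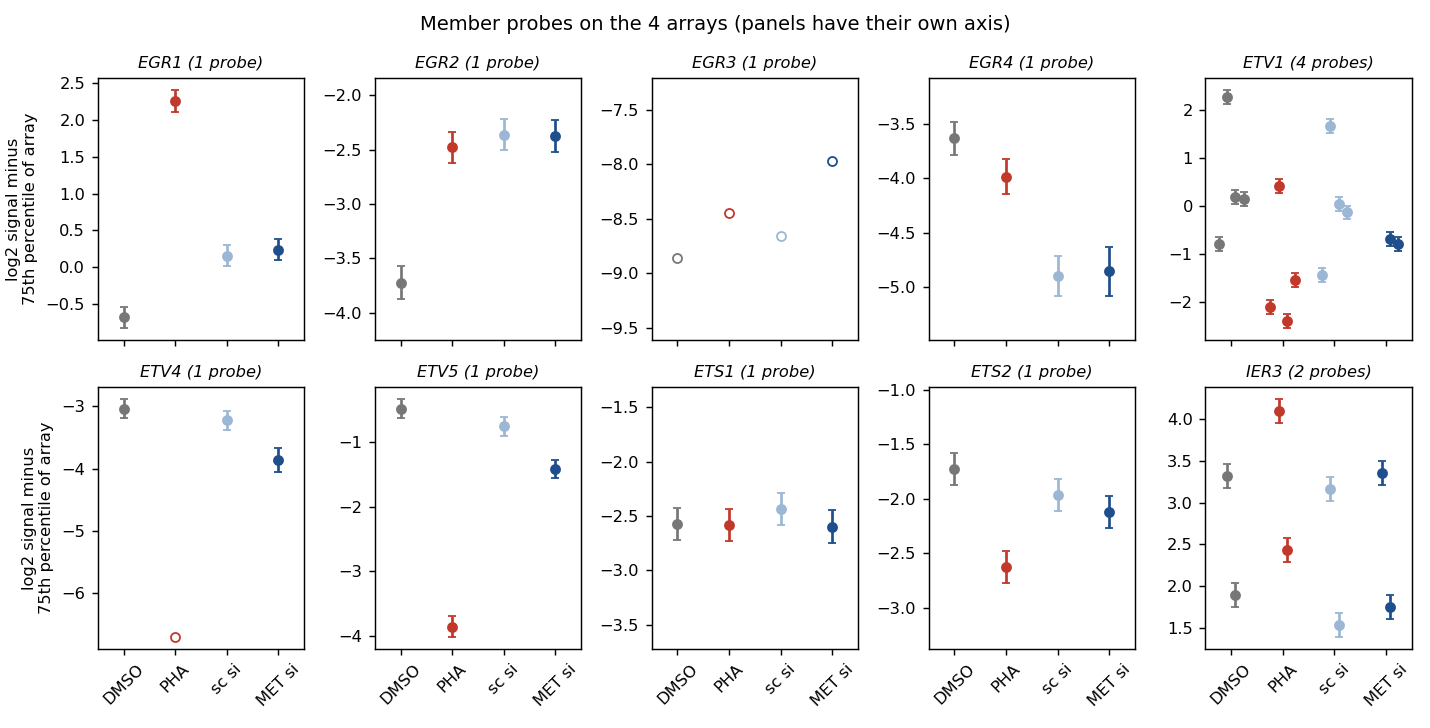
Log2 signal, scaled by subtracting each array's 75th percentile, for every probe of the 10 genes on the 4 arrays, each gene with its own axis range; filled circles are probes well above background, open circles are not, and bars are the scanner software's error. EGR1 stands apart on the PHA665752 array, ETV4 and ETV5 are lowest there, EGR3 is open on all 4 arrays, and the 2 ETV1 probes whose spots were marked on the MET siRNA array have no point there.

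Among the EGR genes, EGR1 and EGR2 were higher with PHA665752 than with DMSO and none of the 3 with a ratio differed by 2-fold between MET siRNA and sc siRNA. EGR1, the prototype immediate-early factor, read 617 under DMSO, 4094 under PHA665752, 924 under sc siRNA and 1013 under MET siRNA. The inhibitor array alone was high, and the remaining arrays lay within a 2-fold span. Scaled to the 75th percentile, the log2 ratio was 2.94 with PHA665752, with a propagated software error of 0.204. This is 7.70-fold higher and places EGR1 as number 63 from the top of 14322 genes. That error was nearly the same for all bright probes and holds no difference between cultures. With MET siRNA the log2 ratio was 0.085 with the same error, a difference smaller than that error. The inhibitor ratio exceeded the siRNA ratio by 2.86 on the log2 scale, with an error of 0.289. The ratio between the controls, sc siRNA over DMSO, was 0.84 for EGR1.

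EGR2, known for its roles in hindbrain patterning and in myelination, gave signals of 74.9 under DMSO, 153 under PHA665752, 162 under sc siRNA and 166 under MET siRNA. The DMSO array alone was low, and the other three agreed within their errors. The log2 ratio was 1.24 with PHA665752, 2.37-fold higher, with an error of 0.21. For sc siRNA over DMSO it was 1.36, 2.57-fold higher, and both ratios share the DMSO array. The pair that shares the transfection gave -0.013 for MET siRNA over sc siRNA. The inhibitor ratio of EGR2 fell short of 2-fold when arrays were scaled to the 50th percentile and, at 0.86, under normexp background correction, where the ratio between the controls was 0.93.

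EGR4, a member of the family best known from neurons, read 79.9 under DMSO, 53.9 under PHA665752, 27.8 under sc siRNA and 29.7 under MET siRNA. Both transfected arrays were low. The inhibitor gave a log2 ratio of -0.35 and MET siRNA 0.044, each within 2-fold, whereas sc siRNA over DMSO gave -1.27, 2.41-fold lower, which is number 84 from the bottom of 14274 genes, or 0.588%. Under normexp correction the ratio between the controls was -0.37. EGR3, needed for muscle spindles, read 2.14, 2.45, 2.05 and 3.44 in the same order of arrays, was not well above background on any, and has no ratio.

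The PEA3 factors ETV1, ETV4 and ETV5 were lower with PHA665752 than with DMSO on every one of their 6 probes, each past 2-fold. With MET siRNA the 4 probes that gave a ratio lay lower by less than 2-fold, between -0.73 and -0.64 on the log2 scale. ETV5 read 707 under DMSO, 59.0 under PHA665752, 490.0 under sc siRNA and 321 under MET siRNA. The inhibitor array was far below the rest, and the MET siRNA array was the next lowest. The log2 ratio of ETV5 was -3.37 with PHA665752, 10.3-fold lower, with an error of 0.214, number 35 from the bottom of 14322 genes or 0.244%. With MET siRNA it was -0.66 with an error of 0.205, number 298 of 13647 genes or 2.18%, beside -0.28 for sc siRNA over DMSO. The inhibitor ratio minus the siRNA ratio was -2.71 on the log2 scale, with an error of 0.296.

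ETV4, whose mouse form gave the PEA3 group its name, read 120 with DMSO, 89.1 with sc siRNA and 59.0 with MET siRNA, and 8.22 with PHA665752, where it was not well above background. Only a bound can therefore be given: with the main processing ETV4 was at least 8.41-fold lower with the inhibitor, a log2 bound of -3.07. With MET siRNA the log2 ratio was -0.64 with an error of 0.245, and between the controls it was -0.18. Because the probe was dim, its values depended on the background correction more than those of ETV5. Plain subtraction gave -2.76 for the inhibitor and -0.19 for the siRNA, and normexp gave -1.02 and -0.14.

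ETV1 was measured by 4 probes, all annotated to the same transcript. A_33_P3401156, which has the highest mean of log2 scaled signals among the probes with a value on all arrays, stands for the gene and read 1094 under DMSO, 295 under PHA665752, 759 under sc siRNA and 496 under MET siRNA. The order of the 4 arrays was the same as for ETV5. Its log2 ratio was -1.68 with PHA665752, 3.20-fold lower, and -0.66 with MET siRNA, number 290 from the bottom of 13647 genes or 2.13%. A_33_P3357954 went from 1136 with DMSO to 163 with PHA665752, a log2 ratio of -2.59 that would be the gene's value had the arrays been averaged without the log, and from 861 with sc siRNA to 536 with MET siRNA, or -0.73 on the log2 scale. The inhibitor ratios of A_33_P3357949 and A_32_P78491 were -1.85 and -1.31. The 4 probes thus shared a direction, and the spread of their ratios, from -2.59 to -1.31, was wider than the error of about 0.205 on each. The latter pair had their spots marked as outliers on the MET siRNA array and were left out there. With the marks ignored the siRNA ratios of the 4 probes were -0.71 (A_33_P3357954), -0.64 (A_33_P3401156 and A_33_P3357949) and -0.48 (A_32_P78491). With the marks ignored sc siRNA over DMSO gave -0.14, -0.26, -0.59 and -0.64 for these probes in that order, so for A_32_P78491 the controls differed by more than the siRNA pair. A_33_P3357954 passed 2-fold with MET siRNA when arrays were scaled to the median of their probes well above background, at -1.03, and A_32_P78491 fell just short with the inhibitor under normexp, at -0.99.

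**Figure D2:**
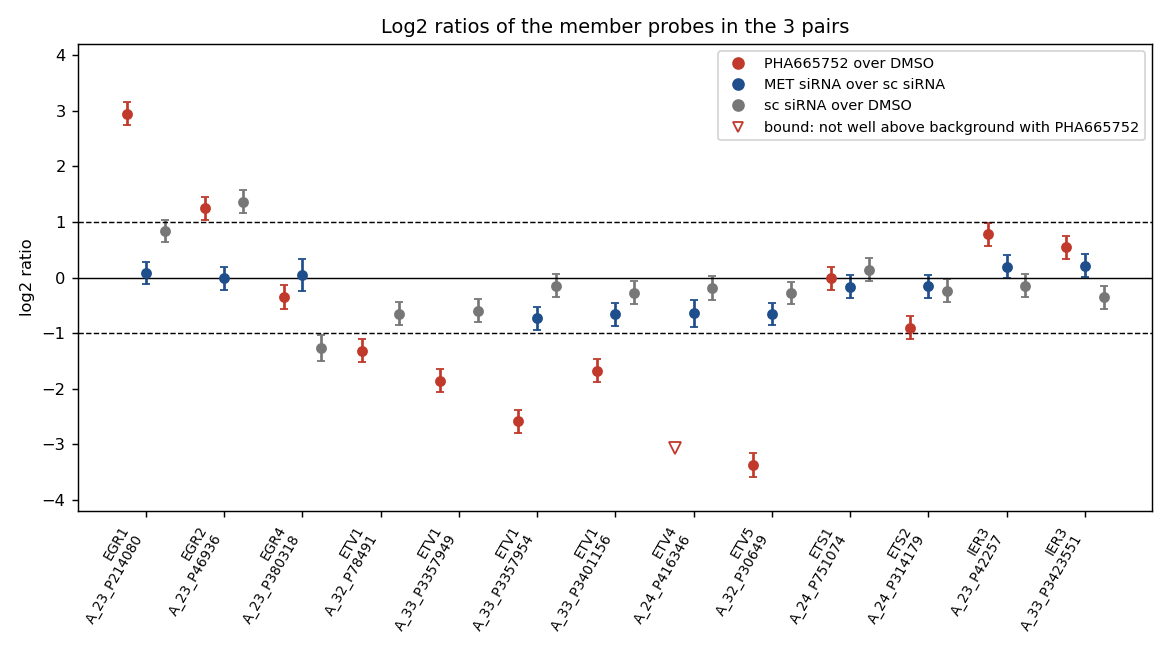
Log2 ratio of each probe with a value in the 3 pairs of arrays, with bars for the propagated software error and dashed lines at 2-fold; the open triangle is the bound for ETV4. With PHA665752 the 6 PEA3 probes lie below the lower dashed line and EGR1 and EGR2 above the upper one, the MET siRNA points all lie between the lines, and between the controls EGR2 lies above and EGR4 below them.

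The founding ETS factors, targets of ERK phosphorylation as proteins, and IER3 lay within 2-fold in every pair. ETS1 read 166 under DMSO, 142 under PHA665752, 154 under sc siRNA and 142 under MET siRNA, and its log2 ratios of -0.011 and -0.16 were smaller than their errors. ETS2 read 299, 138, 213 and 198 in the same order, with the inhibitor array lowest. Its log2 ratio was -0.90 for the inhibitor and -0.15 for the knockdown. The former was within 2-fold but passed it under 50th percentile scaling (-1.14) and quantile normalization (-1.07). For IER3, the probe A_23_P42257 read 9852 under DMSO, 14560 under PHA665752, 7459 under sc siRNA and 8808 under MET siRNA. Its log2 ratios were 0.78 with the inhibitor and 0.19 with the siRNA, and those of A_33_P3423551 were 0.54 and 0.22. Neither probe passed 2-fold in any pair under any alternative.

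Counted by gene, 9 of the 10 gave a ratio. With PHA665752 2 were higher past 2-fold (EGR1, EGR2) and 3 lower (ETV1, ETV4, ETV5), with a median log2 ratio of -0.35. Over all 14322 genes with a ratio 13.1% were higher and 8.04% lower, and the median was 0.075. Counted by probe, 2 of 13 were higher and 6 lower, beside 12.8% and 7.43% of all 23471 probes. With MET siRNA none of the 9 genes and none of the 11 probes passed 2-fold in either direction, and the median log2 ratio of the genes was -0.15. Few genes did on these arrays: 2.04% of 13647 genes were higher and 0.696% lower, with a median of -0.017, and of the probes 2.12% and 0.811%. At the looser threshold of 1.5-fold 3 of the 9 genes were lower (ETV1, ETV4, ETV5) and none higher, beside 2.92% of all genes lower. ETV4 was not past 1.5-fold under plain subtraction (-0.19) or normexp (-0.14). Between the controls 1 gene and 1 probe were higher (EGR2) and 1 of each lower (EGR4), with a median of -0.18 beside -0.010 over all genes. There, 2.89% of genes and 3.06% of probes were higher, and 1.16% of genes and 1.13% of probes lower. The sc siRNA and DMSO pair shares an array with each treatment pair, so its values are given beside theirs and are not independent of them. The inhibitor and siRNA pairs share no array.

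The split by direction with PHA665752 moved with the scaling. When arrays were scaled to the 50th percentile 1 gene was higher and 4 were lower, EGR2 dropping below 2-fold and ETS2 passing it. The same change turned the genes called over the whole array from 62.0% higher to 42.5% higher and the median over all genes from 0.075 to -0.17. EGR1, ETV1, ETV4 and ETV5 were past 2-fold, in the direction given, under each alternative that gave them a value.

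**Figure D3:**
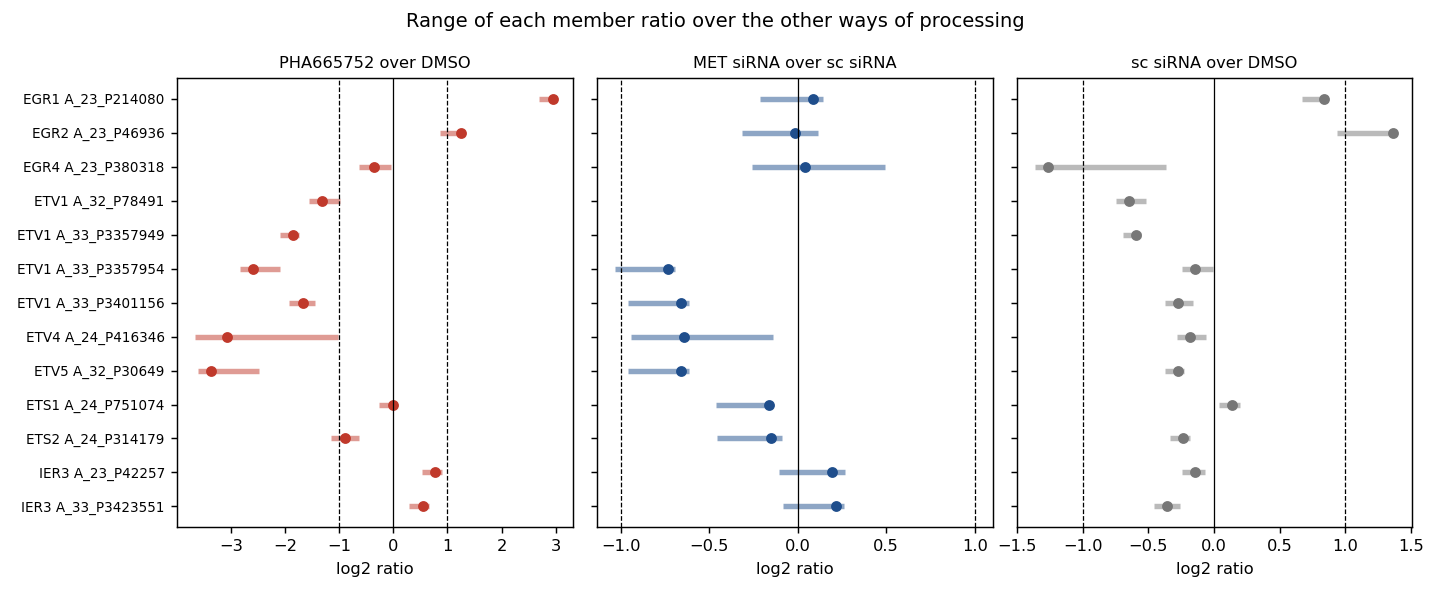
Range of the log2 ratio of each probe over the alternative scalings, background corrections and filters (lines), with the main value as a point, for each pair of arrays; dashed lines mark 2-fold. ETV4 has the widest range with PHA665752, from -3.66 to -1.02, while EGR1 stays between 2.70 and 2.99 and ETV5 between -3.62 and -2.49.

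Of 8 genes for proteins that control EGR and PEA3 factors all gave a ratio in every pair and none passed 2-fold. With the inhibitor 13.1% of all genes were higher and 8.04% lower. These shares were only 2.04% and 0.696% with MET siRNA, and 2.89% and 1.16% between the controls. The medians of the 8 were 0.15 for the inhibitor, -0.067 for the knockdown and -0.11 between the controls. The EGR co-repressors NAB1 and NAB2 had log2 ratios of -0.49 and 0.63 with the inhibitor and -0.24 and 0.11 with the siRNA. CIC, the repressor of ETV1, ETV4 and ETV5, had 0.14 in both pairs. ATXN1, a partner of CIC, had 0.37 and 0.24, and the related ATXN1L 0.067 and -0.68, the latter of the same size as the siRNA ratios of the PEA3 genes. The ubiquitin ligase genes COP1 and DET1 had 0.014 and 0.40 with the inhibitor and -0.15 and 0.022 with the siRNA. SRF, which binds the CArG boxes shown above, had 0.15 and -0.21.

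Other immediate-early genes were placed beside EGR1 and IER3. Of 18 listed 16 gave a ratio. With PHA665752 6 were higher and 1 lower past 2-fold, with a median log2 ratio of 0.49, beside 13.1% and 8.04% of all genes. The 6 became 3 under 50th percentile scaling and 3 under normexp correction. With MET siRNA 1 was higher and none lower, with a median of 0.24, beside 2.04% and 0.696% of all genes. The 1 became 2 under plain subtraction, with the outlier marks ignored and with the deposited values. Between the controls 1 was higher and 2 were lower, with a median of -0.072, beside 2.89% and 1.16% of all genes. With the main processing ATF3, a stress-induced factor of the bZIP class, was the gene of this list past 2-fold the same way with both treatments. It read 1614 under DMSO, 16994 under PHA665752, 3008 under sc siRNA and 9882 under MET siRNA. Its log2 ratios were 3.61, 1.67 and, between the controls, 1.15, beside 2.94, 0.085 and 0.84 for EGR1. The difference between these genes with the siRNA has no replicate check. The AP-1 genes FOS and FOSB, chosen after their values were seen, had log2 ratios of 1.962 and 1.91 with the inhibitor and 0.42 and 0.44 with the siRNA, and -1.33 and -1.66 between the controls. EGR1 went the other way between the controls, at 0.84. MAFF, the gene of this list lower past 2-fold with the inhibitor, had -1.72 with it and -0.44 with the siRNA. FOSL1, an AP-1 gene counted below with the ERK output genes, had -3.36 and -0.79.

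ERK output and feedback genes were placed beside the PEA3 factors. Of 15 listed 13 gave a ratio with PHA665752. Of these 11 were lower past 2-fold and none higher, with a median log2 ratio of -1.957, beside 8.04% of all genes lower. With MET siRNA 3 of 12 were lower and none higher, with a median of -0.77, beside 0.696% of all genes lower. That count was 7 under scaling to the median of probes well above background and 1 under normexp correction. Between the controls 1 of 13 was lower and none higher, with a median of -0.098, beside 1.16% of all genes lower and 2.89% higher. Past 2-fold the same way with both treatments were SPRY4, a feedback inhibitor of receptor signalling (-4.24 and -1.16), DUSP6, a phosphatase of ERK (-3.27 and -1.14), and EPHA2, an ephrin receptor (-3.36 and -1.10). The inhibitor ratio of ETV5, -3.37, differed from those of DUSP6 and EPHA2 by less than its error, and its siRNA ratio, -0.66, was nearer to 0 than theirs.

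**Figure D4:**
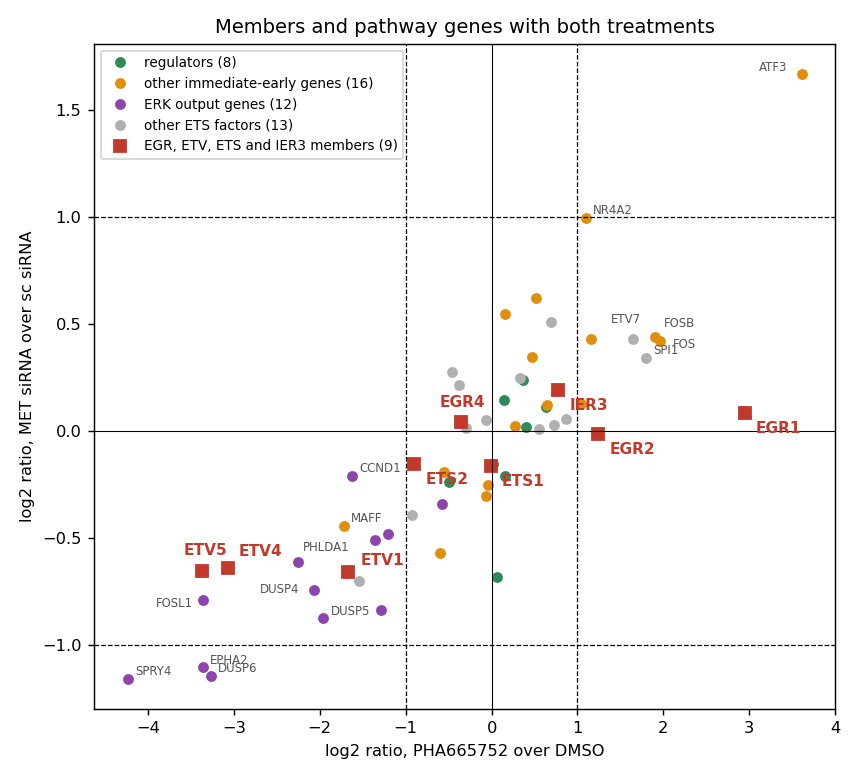
Log2 ratio with PHA665752 (horizontal) against that with MET siRNA (vertical) for the genes with both ratios: 9 of the 10 genes described here (squares), with ETV4 at its bound, and the genes of the pathway lists (circles); dashed lines mark 2-fold. ETV1, ETV4 and ETV5 lie at the lower left among the ERK output genes, EGR1 lies at the right near 0 on the vertical axis, and ATF3 lies at the upper right.

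The 13066 named genes well above background on all 4 arrays were then compared with EGR1, ETV4 and ETV5 by their profile, as the root mean square difference of centred log2 signals over these 4 arrays. Nearest to ETV5 was G0S2, an inhibitor of triglyceride lipase, at 0.0433, with signals of 11419 under DMSO, 974 under PHA665752, 8449 under sc siRNA and 5117 under MET siRNA. FOSL1, an AP-1 subunit, and MYB, a haematopoietic transcription factor, followed at 0.0845 and 0.0863. The same measure named GNGT2, IVL and FOSL1 for ETV4, but the profile of ETV4 includes the signal that was not well above background with PHA665752, so neither their distances nor their order can be read. GNGT2 encodes a G protein subunit and IVL the cornified envelope protein involucrin. Nearest to EGR1 were the axonemal dynein gene DNAH5 at 0.0722, DNAJB13 at 0.115 and ANKK1 at 0.128. DNAH5 read 26.6 under DMSO, 195 under PHA665752, 38.6 under sc siRNA and 45.9 under MET siRNA, and like EGR1 it was high on the inhibitor array alone. With 4 arrays these distances are descriptions of the profiles.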

How the data were processed

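The authors hybridised labelled cRNA of Hs746T cells to Agilent human 44K V2 single-colour arrays, 1 per condition and 4 on 1 slide, and deposited Feature Extraction files (version 11.5.1.1 per the file headers) with a processed signal intensity per spot, already background-corrected by that software. A deposited value table holds the same intensity, within 0.05 for 33128 probes spotted once. Here, control spots and spots marked as outliers were left out, spots of a probe were averaged, and the log2 intensity minus the 75th percentile of its array was used (Python 3.11.15, numpy 2.4.6, pandas 2.3.3). Over 777 probes spotted 10 times on the DMSO array (755 to 782 on the others) the SD between spots had a median of 0.0531 to 0.0589 (log2), which covers technical noise only. The software error of a ratio was propagated from each spot's reported error. For bright spots the reported error was close to a fixed share of the signal, and it holds no difference between cultures. A probe not well above background on 1 array of a pair gave a bound, taken from the lowest signal well above background on that array or its own if higher. A probe not well above background on either array gave no ratio. The probe with the highest mean log2 scaled signal and a value on all 4 arrays stood for its gene, through RefSeq names for 75.5% of probes (19740 genes). A gene was counted as higher or lower past 2-fold.

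Alternatives were 50th percentile, median and quantile scaling, normexp with offset 50 in limma 3.58.1 (R 4.3.3), plain subtraction, stricter and no filters, marks ignored, the deposited value table, thresholds of 1.5-fold and 3-fold, and the median of all probes of a gene in place of that probe. Genes named were the 10 genes, their regulators, listed genes past 2-fold the same way with both treatments, and the 3 nearest profiles of EGR1, ETV4 and ETV5. MET, cell type markers, FOS, FOSB, MAFF and ETS factors named in the closing observations fall outside this rule. The genes and the lists were chosen with earlier results of these data known. The computation was tested on simulated data. Protein sequences were not used here.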

Additional observations from a re-analysis of the deposited data

How the results depend on the processing

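No paired analysis was possible because each condition was 1 array, and no array could be left out. Of the counts of the genes and probes past 2-fold under the alternatives, 56 stayed within 1.5 times the main count and 7 did not. Of the log2 ratios and list medians 393 stayed within the spot noise of a ratio and 70 moved beyond it. None of the 70 reversed a called direction. Part of the 393 could not have moved. For a probe well above background on both arrays, the stricter filter and no filter return the main ratio unchanged. The deposited value table holds the same intensities and nearly repeats the values with marks ignored. Counts out of 9 alternatives include these settings, so they are not counts of independent checks. For MET siRNA over sc siRNA no gene passed 2-fold, but 3 passed 1.5-fold (all lower, beside 2.92% of all genes), and 1 probe passed 2-fold when arrays were scaled to the median of probes well above background. For sc siRNA over DMSO the 2 genes became 0 under normexp correction, 1 under plain subtraction and 0 at a threshold of 3-fold, and the 2 probes became 0 under normexp and 1 under plain subtraction. Normexp with an offset pulls ratios of dim probes towards 0 by construction. Scaling to the median of probes well above background shifted the median over all genes for MET siRNA from -0.017 to -0.31, and with it the signs of EGR1 (-0.22), EGR4 (-0.26) and IER3 (-0.11). The sign of EGR2 with MET siRNA was kept under 5 of 9 alternatives, and that of ETS1 with PHA665752 under 7 of 9. Comparing the protein sequences of the genes was not run. With 1 array per condition, differences between cultures cannot be told apart from those of treatment, and the 5.58% of marked spots on the MET siRNA array removed 2 of the 4 ETV1 probes there.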

Other observations

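Of 23 other members of the ETS family 22 were on the array and 15 gave an inhibitor ratio. With PHA665752 2 were higher and 1 lower past 2-fold, with a median log2 ratio of -0.061, beside 13.1% and 8.04% of all genes. The inhibitor counts were thus near the shares over all genes. With MET siRNA 1 of 14 was higher and none lower, with a median of 0.14, beside 2.04% and 0.696% of all genes. Under normexp correction none was higher with the inhibitor, and where both arrays had to be well above background none of 13 was higher with MET siRNA. The genes named next were chosen after their values were seen. ELK3, a partner of SRF that acts as a repressor until phosphorylated, had log2 ratios of -1.55 with the inhibitor and -0.70 with the siRNA, values near those of ETV1. SPI1, the PU.1 factor of myeloid cells, read 30.9 under DMSO, 92.6 under PHA665752, 20.5 under sc siRNA and 26.9 under MET siRNA, and had a log2 ratio of 1.80 with the inhibitor.

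Among these genes ETV7 had the highest ratio between the controls. It read 17.2 under DMSO, 46.4 under PHA665752, 324 under sc siRNA and 451 under MET siRNA. Its log2 ratio was 4.49 for sc siRNA over DMSO, against 1.65 with the inhibitor and 0.43 with MET siRNA. FLI1, the gene higher with MET siRNA, was well above background on the MET siRNA array alone, at 90.5 beside 2.26 to 2.70 elsewhere. With the main processing it was at least 8.56-fold higher than with sc siRNA, from a single probe on a single array.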
